A study of Mus musculus with 2 samples.

Results

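The 9 genes Col6a1, Col6a2, Col6a3, Col8a1, Col12a1, Col13a1, Col14a1, Col15a1 and Col16a1, here called the beaded and fibril-associated collagens, were picked by symbol from the 28692 genes listed for both libraries, and all 9 were present. The name is broader than the structures behind it. Collagen VI forms beaded microfilaments, and collagens XII, XIV and XVI are fibril-associated collagens with interrupted triple helices (FACITs). Collagen VIII is a short-chain collagen that builds networks, collagen XIII spans the cell membrane, and collagen XV is a multiplexin at the outer face of basement membranes. They were set beside 11 fibrillar collagen genes such as Col1a1, a chain of type I collagen fibres.

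The cells were live tdTomato-positive lung cells sorted from Lepr-Cre;Rosa26-tdtomato mice of 8 to 10 weeks, given either bleomycin, a DNA-damaging compound that scars the rodent lung, or saline. Both groups carry the same Cre and reporter alleles. Lepr encodes the leptin receptor, and since its Cre switches the reporter on for good, a sorted cell need not transcribe Lepr at the time of the sort. Each group is 1 library, and the sources used here state neither the number of mice pooled nor the dose or day.

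The bleomycin library held 61537182 unique molecular identifiers (UMIs) over 4473 barcodes and the saline library 37570380 over 5455, and 4308 and 5195 barcodes were kept as cells. Median depth was 12271 UMIs per bleomycin cell and 6300 per saline cell, and 31 barcode sequences occur among the kept cells of both libraries. Fibroblasts were 3516 (81.6%) of the bleomycin cells and 3573 (68.8%) of the saline cells. A class name stands for cells resembling that type by marker genes, and collagen genes were used neither as markers nor in the clustering. Lepr stood at 3.51 UMIs per 1000000 in bleomycin fibroblasts and at 44.2 in saline fibroblasts.

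Levels are UMIs of a gene per 1000000 UMIs of a class in a library (UPM), with exact 95% intervals in square brackets that cover counting error only. With 1 library per group there is no spread between animals and no test. "Rose" and "fell" are used only where the higher library had at least 50 UMIs and 20 UPM of the gene and the levels differed at least 2-fold. The 3' tags counted do not scale with transcript length.

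Fibrillar collagens carry tension in tissue, whereas the collagens described here coat fibrils, link them to cells and basement membranes, or sit in the membrane itself. Lung fibroblasts are a main source of collagen VI. Col13a1 and Col14a1 have each given their name to a class of mouse lung fibroblast, the Col13a1 cells lying in alveolar walls and the Col14a1 cells around vessels and airways.

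In fibroblasts the 9 genes did not move together. Col6a3, Col8a1 and Col12a1 rose after bleomycin, Col13a1 and Col14a1 fell, and Col6a1, Col6a2, Col15a1 and Col16a1 differed less than 2-fold. That is 3 risen and 2 fallen of 9, where 6.17% of 5885 genes with enough UMIs rose and 9.72% fell. Their median log2 ratio of bleomycin over saline was 0.49, beside -0.05 for all genes. Of the fibrillar collagens 6 rose and 0 fell of 8 with enough UMIs, with a median log2 ratio of 1.68. The 9 genes made up 13.5% of their UMIs and the fibrillar UMIs together in bleomycin fibroblasts and 24.7% in saline fibroblasts. The 10 fibroblast markers summed to 6932 UPM in bleomycin fibroblasts and 25742 UPM in saline fibroblasts, and 7 smooth muscle markers to 3206 and 434 UPM, and the part of these shifts in the collagen levels was not tested.

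**Figure D1:**
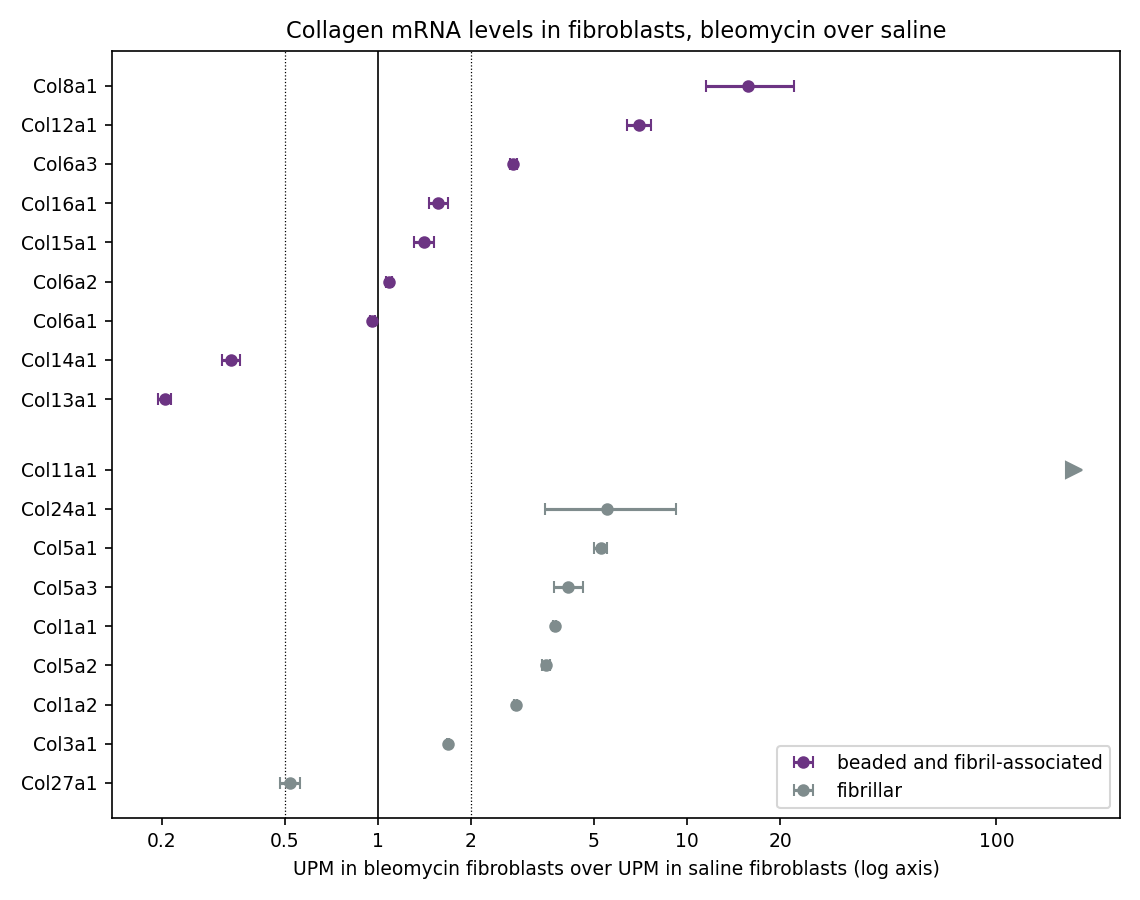
Level in bleomycin fibroblasts over level in saline fibroblasts for the 9 beaded and fibril-associated collagen genes (purple) and the fibrillar genes with at least 50 UMIs (grey), on a log axis with exact 95% intervals for counting error. Dotted lines mark a 2-fold difference either way, and the triangle is the lower bound for Col11a1, which had 0 saline UMIs. The 9 genes spread from 0.205 for Col13a1 to 15.8 for Col8a1.

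Collagen VI is a trimer of 1 chain each from Col6a1, Col6a2 and Col6a3, which assembles into beaded filaments around cells. Col6a1 stood at 592 UPM [586 to 599] in bleomycin fibroblasts and 618 UPM [609 to 628] in saline fibroblasts, a ratio of 0.958 [0.940 to 0.977]. Col6a2 stood at 612 UPM [605 to 619] in bleomycin fibroblasts and 563 UPM [554 to 572] in saline fibroblasts, a ratio of 1.09 [1.07 to 1.11]. Neither chain came near a 2-fold difference. Col6a3, whose C-terminal end is released as the signalling fragment endotrophin, rose to 843 UPM [836 to 851] in bleomycin fibroblasts, against 307 UPM [301 to 314] in saline fibroblasts, a ratio of 2.74 [2.68 to 2.81].

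The promoter windows of these chains and of Col13a1 are shown because the chains join 1 trimer yet differed in response, and Col13a1 moved the other way. Each is the 250 bases before a RefSeq start (GRCm38.p6, minus strand), printed 5′ to 3′ along the gene, at chr10:76726045-76726294 for Col6a1, chr10:76623631-76623880 for Col6a2, chr1:90843972-90844221 for Col6a3 and chr10:61979109-61979358 for Col13a1. Capitals mark matches on either strand to 5 motifs, which are the TATA box TATAAA, the CCAAT box, the GC box GGGCGG, the AP-1 motif TGANTCA and the TEAD motif CATTCC.
Col6a1: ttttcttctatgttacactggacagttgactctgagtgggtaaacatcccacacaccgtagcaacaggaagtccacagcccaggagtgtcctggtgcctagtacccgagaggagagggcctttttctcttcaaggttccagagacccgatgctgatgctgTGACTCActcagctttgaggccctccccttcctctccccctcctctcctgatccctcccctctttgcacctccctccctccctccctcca
Col6a2: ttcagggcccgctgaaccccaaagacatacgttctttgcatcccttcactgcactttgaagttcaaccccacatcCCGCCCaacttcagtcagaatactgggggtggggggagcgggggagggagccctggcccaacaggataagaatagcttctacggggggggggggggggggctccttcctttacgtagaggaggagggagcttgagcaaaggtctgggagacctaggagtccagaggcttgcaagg
Col6a3: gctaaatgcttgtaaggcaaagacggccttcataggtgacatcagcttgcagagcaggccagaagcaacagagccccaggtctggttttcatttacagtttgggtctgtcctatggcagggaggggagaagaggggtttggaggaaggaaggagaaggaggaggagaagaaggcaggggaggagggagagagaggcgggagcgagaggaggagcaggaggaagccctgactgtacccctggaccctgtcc
Col13a1: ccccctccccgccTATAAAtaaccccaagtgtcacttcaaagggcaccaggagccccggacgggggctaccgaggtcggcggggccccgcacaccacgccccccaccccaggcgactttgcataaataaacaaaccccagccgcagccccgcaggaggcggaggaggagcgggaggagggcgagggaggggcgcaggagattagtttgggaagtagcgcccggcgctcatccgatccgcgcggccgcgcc
The Col6a1 window held the AP-1 motif, found in 6.87% of 27025 promoter windows of the same length. The Col6a2 window shown held the GC box on the other strand (32.9% of windows), the Col13a1 window the TATA box (12.97%), and the Col6a3 window none of the 5. G and C made up 56.0% of the Col6a1 window, 59.2% of that of Col6a2, 57.2% of that of Col6a3 and 68.8% of that of Col13a1. A second RefSeq start of Col6a2, with the window chr10:76623405-76623654, held 3 GC boxes on the other strand and the TEAD motif (12.6% of windows). The AP-1 motif of the Col6a1 window lies before the RefSeq start but inside the gene as GENCODE annotates it, which begins further upstream. RefSeq windows were matched for 7 of the 9 genes.

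The genes themselves lie, in GRCm38, at chr10:76708792-76726168 (Col6a1, minus strand), chr10:76595762-76623630 (Col6a2, minus strand, 85.2 kb from Col6a1 with Gm35608 between) and chr1:90765923-90843971 (Col6a3, minus strand, overlapped by Gm36970). The others lie at chr16:57624258-57754737 (Col8a1, minus strand), chr9:79598991-79718831 (Col12a1, minus strand), chr10:61838236-61979108 (Col13a1, minus strand), chr15:55307750-55520803 (Col14a1, plus strand), chr4:47208161-47313167 (Col15a1, plus strand) and chr4:130047840-130099283 (Col16a1, plus strand). Annotated genes overlap Col12a1 (4930562D21Rik), Col13a1 (Gm5750), Col14a1 (1700040F17Rik, Gm18787 and Gm49257) and Col15a1 (Gm12426) on the opposite strand. No strand setting of the counting is stated in the sources used here, so whether reads of these pairs were told apart is not known from them. Gm36970, on the same strand as Col6a3, is not among the genes listed for the libraries.

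The make-up of collagen VI transcripts differed between the libraries. Col6a3 held 41.2% [40.9 to 41.5] of the summed UMIs of the 3 chains in bleomycin fibroblasts and 20.7% [20.2 to 21.1] in saline fibroblasts. Among the bleomycin fibroblast clusters with at least 50 cells its share ran from 19.6% [17.9 to 21.4] in cluster 10 (leading genes Meg3, Pi16) to 54.1% [53.6 to 54.6] in cluster 7 (Anxa8, Msln). Bleomycin cluster 0 (Chl1, Saa3) held 25.7% [24.8 to 26.5], and saline cluster 20 (Slc7a10, Colq) 25.2% [23.99 to 26.4]. Pericytes, the contractile cells around capillaries, held 40.5% [34.8 to 46.4] after bleomycin and 17.1% [12.1 to 23.05] after saline, with 49 cells each. These pericyte shares rest on 117 and 34 Col6a3 UMIs, and after thinning to 2000 UMIs 5 of 49 cells (10.2%) had a Col6a3 UMI in each library. Alveolar macrophages held 44.6% [38.6 to 50.8] after bleomycin and 23.97% [18.98 to 29.6] after saline. The 10 fibroblast markers summed there to 486 UPM after bleomycin and 1439 UPM after saline. They also differed in fibroblasts themselves, at 6932 and 25742 UPM, so these sums do not compare amounts of fibroblast RNA between libraries. The part of fibroblast RNA in the macrophage shares was not tested.

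**Figure D2:**
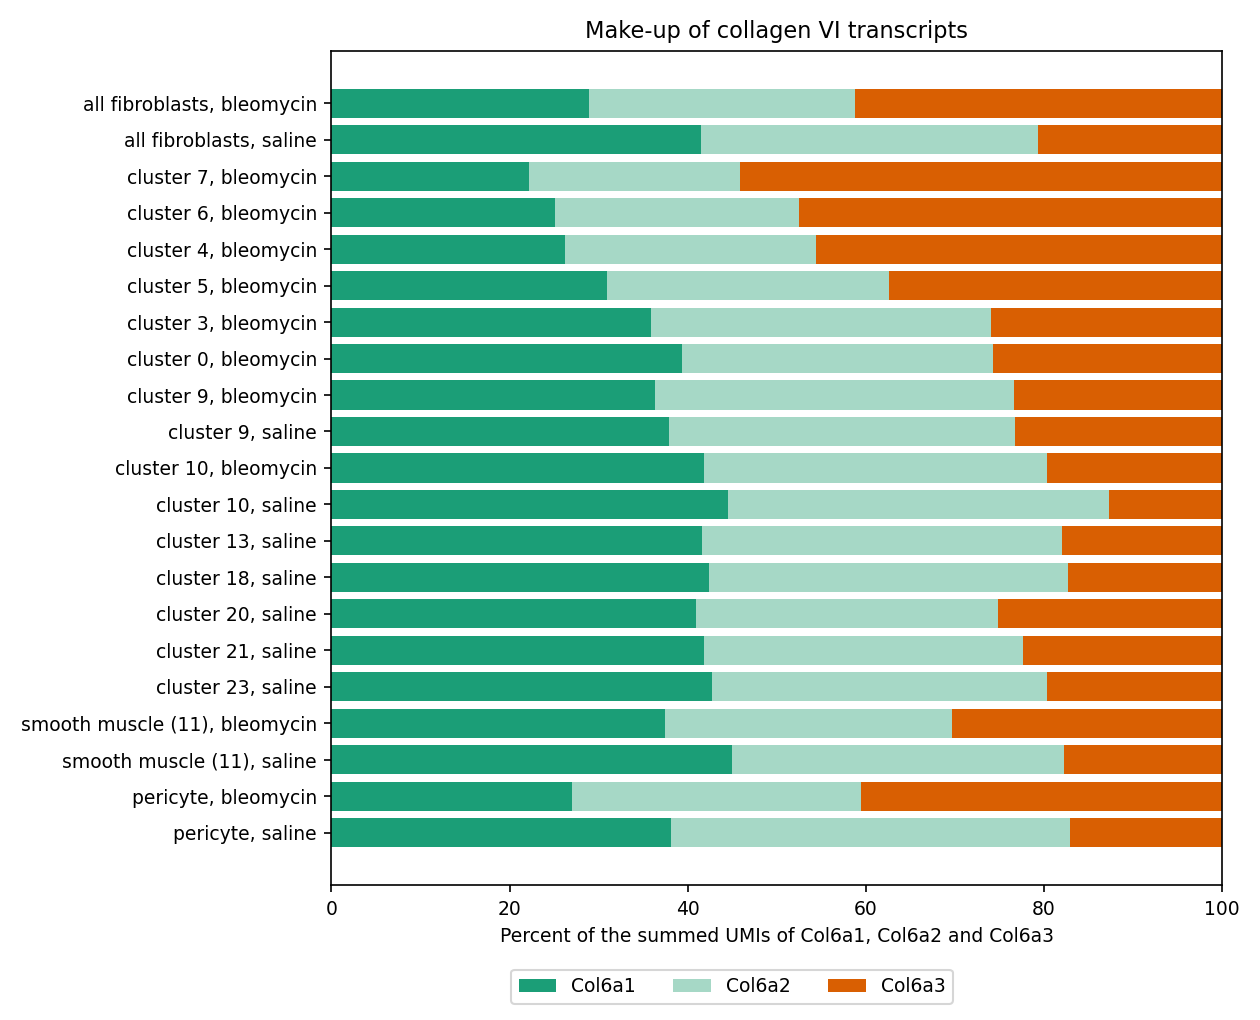
Percent of the summed UMIs of Col6a1, Col6a2 and Col6a3 held by each chain in all fibroblasts, in fibroblast clusters with at least 50 cells, in smooth muscle cluster 11 and in pericytes, with bleomycin above saline where both are shown. Col6a3 (orange) is widest in bleomycin cluster 7 at 54.1% and narrowest in saline cluster 10 at 12.7%.

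Over the 15 fibroblast units, meaning a cluster in a library with at least 50 cells, Col6a1 ran from 403 UPM in saline cluster 20 to 801 UPM in saline cluster 13 (Cxcl5, Cxcl9). Col6a2 ran from 333 UPM in saline cluster 20 to 795 UPM in bleomycin cluster 3 (Thbs4, Spp1). Both were thus present throughout. Col6a3 ran from 172 UPM [151 to 197] in saline cluster 10 to 1668 UPM [1644 to 1692] in bleomycin cluster 7, followed by 1372 UPM [1338 to 1406] in bleomycin cluster 6 (Cthrc1, Postn). The intervals of those top clusters meet those of no other unit, and the highest saline unit was cluster 9 (Adh7, Pi16) at 411 UPM [386 to 437]. The 15 saline cells of cluster 3, too few for a unit, held 149 Col6a3 UMIs among their 176467 UMIs. Bleomycin cluster 3 held 4527 among 8380588. Cluster 7 held 42.7% of all Col6a3 UMIs in the bleomycin library, and without it the log2 ratio in fibroblasts was 0.99, just under 2-fold. Msln, which leads cluster 7, is a mesothelial marker. The 6 mesothelial markers summed to 257 UPM in that cluster, with Upk3b and Lrrn4 at 0, and to 132 UPM in all bleomycin and 106 UPM in all saline fibroblasts, while smooth muscle markers summed to 7133 UPM in cluster 6, and their part in the Col6a3 level was not tested.

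With each cell thinned to 2000 UMIs, 60.4% [58.8 to 62.03] of bleomycin and 40.9% [39.3 to 42.5] of saline fibroblasts had a Col6a3 UMI, and unthinned the shares were 91.9% and 76.8%. In alveolar macrophages, which should lack it, the thinned shares were 10.98% [7.85 to 14.8] and 4.40% [2.94 to 6.29]. Median depth was 13599 UMIs in bleomycin and 6835 in saline fibroblasts, and 6743 and 4161 in the macrophages. The fibroblast shares lay above the macrophage background in both libraries.

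**Figure D3:**
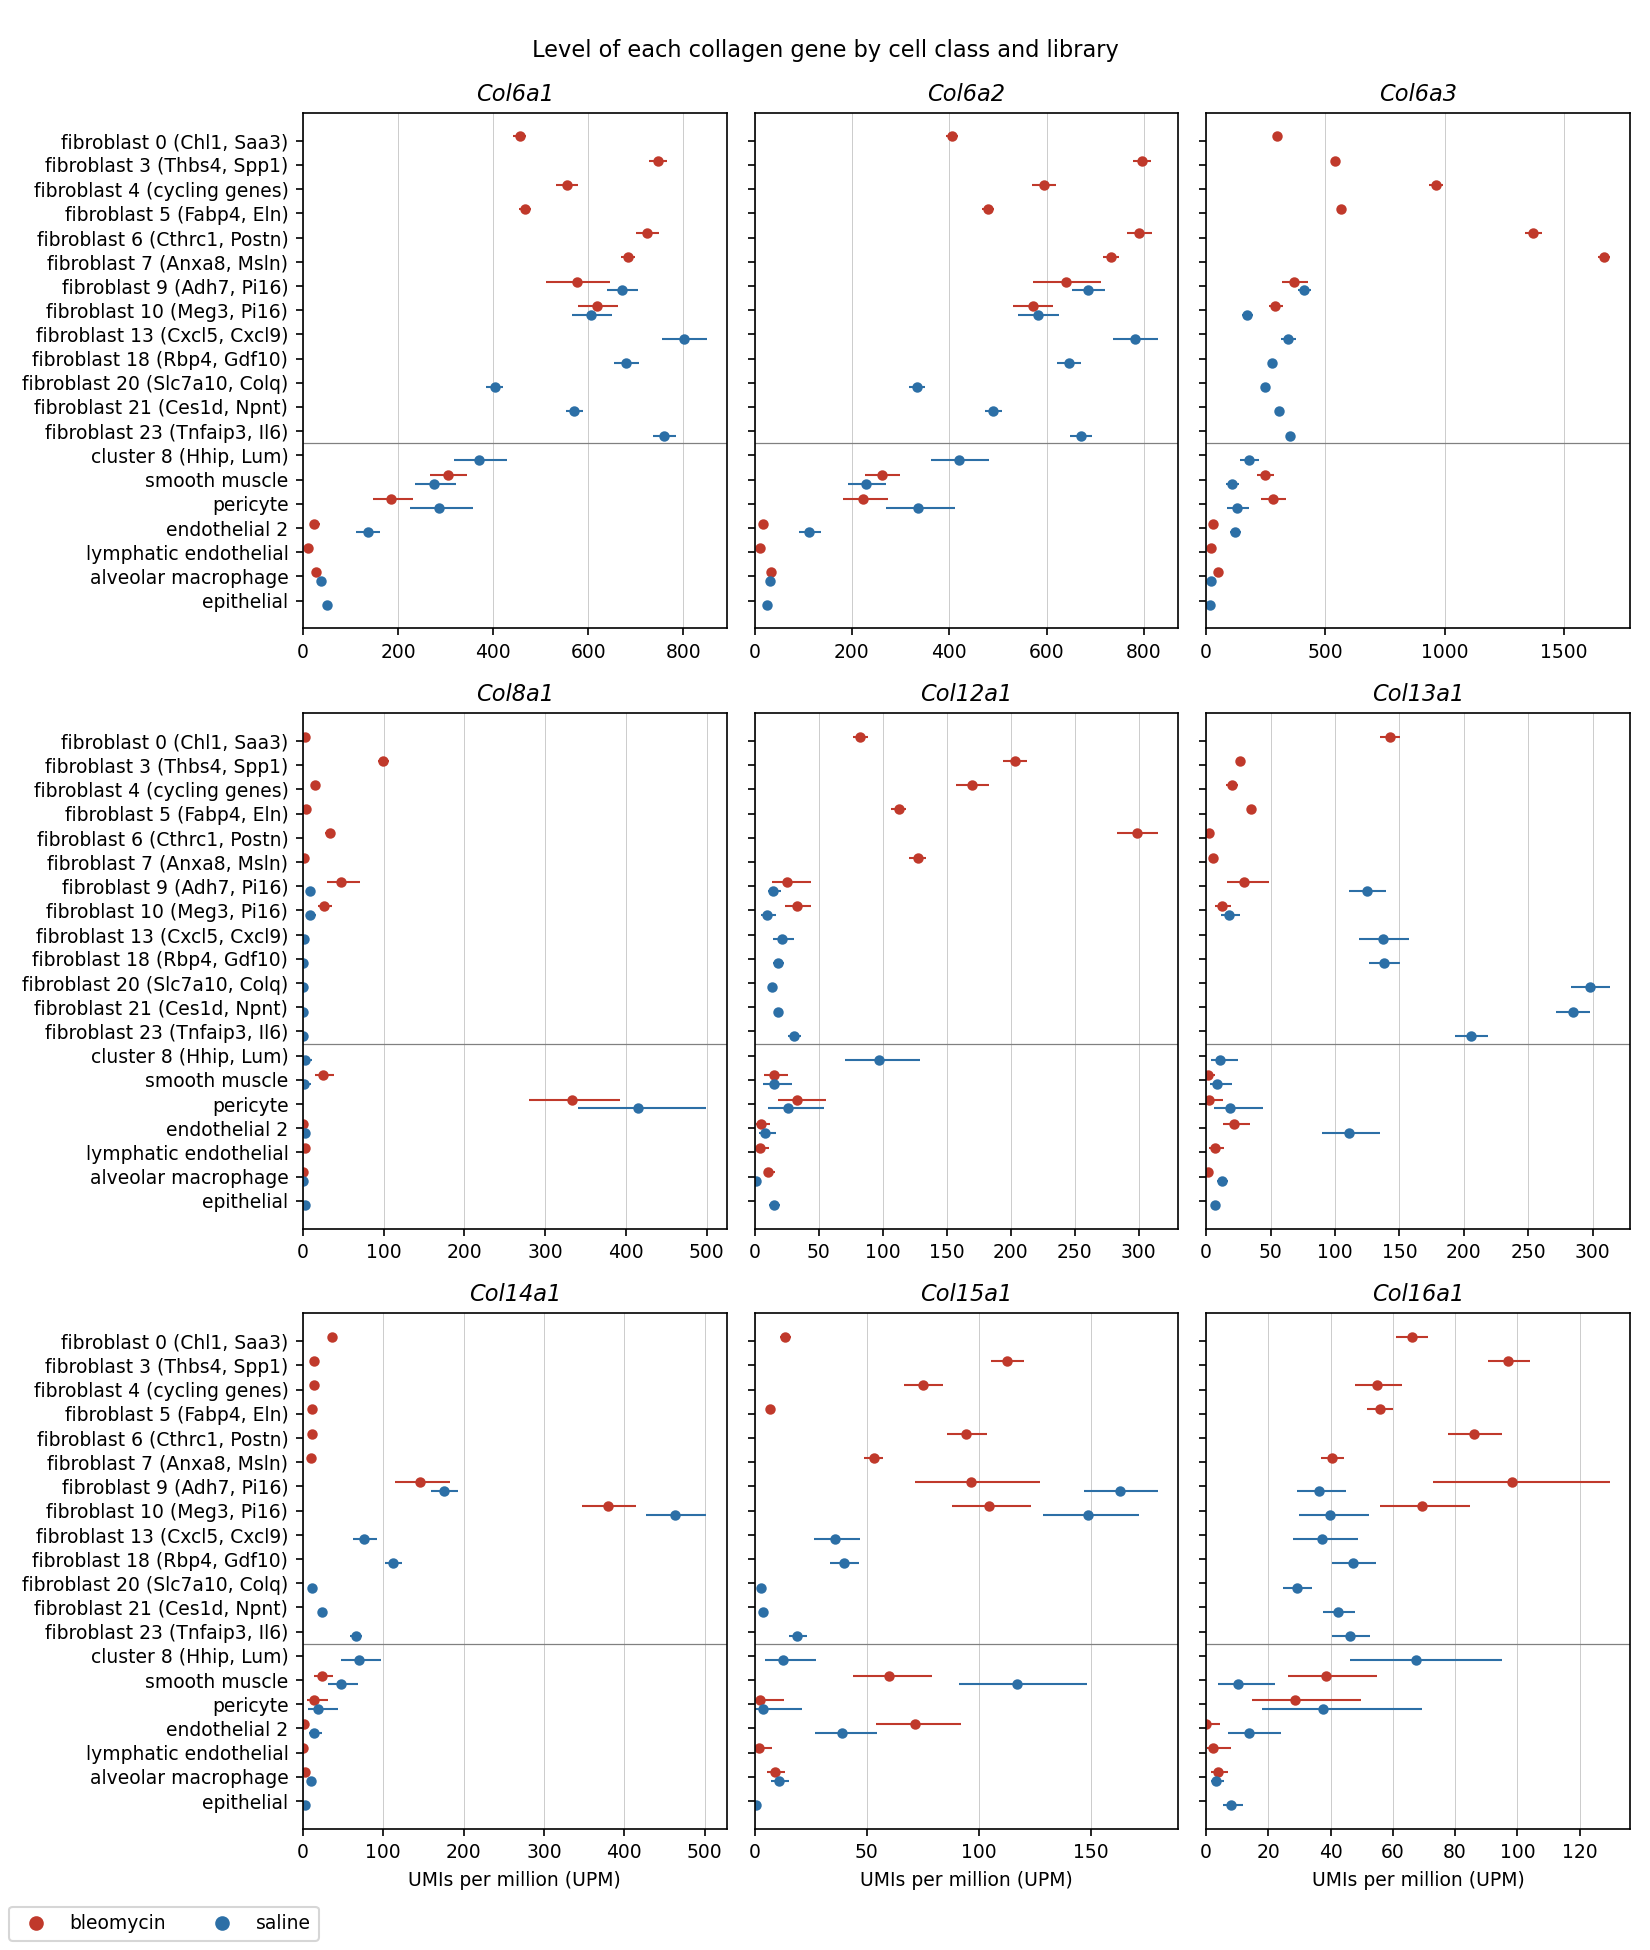
Level in UPM of each of the 9 genes (1 panel each) in the fibroblast clusters, above the grey line, and in other classes, below it, in bleomycin (red) and saline (blue) cells, for classes with at least 50 cells or, for pericytes, 49. Bars are exact 95% intervals for counting error. Col13a1 peaks in saline cluster 20 at 298 UPM, Col14a1 in saline cluster 10 at 464 UPM and Col8a1 in saline pericytes at 414 UPM.

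Among the FACITs, Col12a1, which coats type I fibrils in tension-bearing tissue, rose to 142 UPM [139 to 145] in bleomycin fibroblasts, against 20.3 UPM [18.6 to 22.1] in saline fibroblasts, a ratio of 7.01 [6.41 to 7.67]. Its highest unit was bleomycin cluster 6 at 299 UPM [283 to 315], then bleomycin cluster 3 at 203 UPM [194 to 213] and the cycling bleomycin cluster 4 at 169.7 UPM [157 to 183]. No saline fibroblast unit passed 30.8 UPM. The 15 saline cells of cluster 3, too few for a unit, held 29 Col12a1 UMIs among their 176467 UMIs. Bleomycin cluster 3 held 1702 among 8380588. After thinning, 19.3% [18.02 to 20.7] of bleomycin and 3.39% [2.82 to 4.03] of saline fibroblasts had a Col12a1 UMI (unthinned 61.6% and 11.4%), against 1.78% [0.656 to 3.83] and 0.157% [0.00397 to 0.872] of alveolar macrophages.

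Col14a1, a FACIT of skin, tendon and vessel sheaths, fell to 27.2 UPM [25.8 to 28.7] in bleomycin fibroblasts, against 81.1 UPM [77.7 to 84.7] in saline fibroblasts, a ratio of 0.335 [0.313 to 0.359]. It was concentrated in cluster 10, at 380.2 UPM [348 to 415] in 140 bleomycin cells and 464 UPM [428 to 502] in 241 saline cells. Cluster 9 came next, at 146 UPM [114 to 183] in 52 bleomycin cells and 175 UPM [159 to 193] in 399 saline cells. Both clusters were thus high in either library and held fewer of the bleomycin cells. Within cluster 10 the ratio was 0.820 [0.727 to 0.924], under 2-fold, and the part of cluster make-up in the fall over all fibroblasts was not tested.

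Col16a1, a FACIT that joins fibrils to cells, stood at 64.2 UPM [62.1 to 66.4] in bleomycin fibroblasts and 40.99 UPM [38.6 to 43.5] in saline fibroblasts, a ratio of 1.57 [1.46 to 1.68]. It ran from 29.05 UPM [24.6 to 34.1] in saline cluster 20 to 98.3 UPM [72.99 to 129.6] in bleomycin cluster 9. That is a 3.39-fold range, wider than the 1.99-fold of Col6a1 and the 2.39-fold of Col6a2. After thinning, 13.3% [12.2 to 14.4] of bleomycin and 7.58% [6.74 to 8.50] of saline fibroblasts had a Col16a1 UMI (unthinned 52.9% and 24.2%), against 0.297% [0.00751 to 1.64] and 1.10% [0.443 to 2.25] of alveolar macrophages.

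Col13a1, the transmembrane collagen, fell to 43.1 UPM [41.4 to 44.96] in bleomycin fibroblasts, against 211 UPM [205 to 217] in saline fibroblasts, a ratio of 0.205 [0.195 to 0.215]. Saline clusters 20 and 21 (Ces1d, Npnt), both alveolar by their markers, stood at 298 UPM [283 to 313] and 284 UPM [271 to 298]. Bleomycin clusters 6 and 7 stood at 2.18 UPM [1.05 to 4.01] and 5.60 UPM [4.31 to 7.15]. Saline cluster 20 and bleomycin cluster 6, which had 10 Col13a1 UMIs, were the highest and lowest units, 137-fold apart. Bleomycin cluster 0, where the alveolar markers were the best-covered list, stood at 142 UPM [135 to 150.2], beside 138 UPM [127 to 150.4] in saline alveolar cluster 18 (Rbp4, Gdf10). After thinning, 9.10% [8.17 to 10.1] of bleomycin and 31.8% [30.3 to 33.3] of saline fibroblasts had a Col13a1 UMI (unthinned 30.6% and 66.4%), against 0.297% [0.00751 to 1.64] and 2.51% [1.44 to 4.05] of alveolar macrophages.

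Col15a1, the multiplexin, stood at 51.8 UPM [49.9 to 53.8] in bleomycin fibroblasts and 36.7 UPM [34.4 to 39.1] in saline fibroblasts, a ratio of 1.41 [1.31 to 1.52]. It was highest in saline cluster 9 at 163 UPM [147 to 179.8] and saline cluster 10 at 149 UPM [129 to 171], and stood at 113 UPM [105 to 119.9] in bleomycin cluster 3, 104 UPM [87.8 to 123] in bleomycin cluster 10 and 96.4 UPM [71.3 to 127] in bleomycin cluster 9. Saline cluster 20 was lowest, at 2.92 UPM [1.64 to 4.82]. The saline Pi16 clusters were thus highest, and the intervals of the 3 bleomycin clusters overlap. Without cluster 9 its log2 ratio was 1.08, past 2-fold, but over all settings tried it ran from 0.02 to 1.08. After thinning, 6.94% [6.12 to 7.83] of bleomycin and 6.91% [6.10 to 7.79] of saline fibroblasts had a Col15a1 UMI, with overlapping intervals. In smooth muscle cluster 11 it stood at 59.7 UPM [44.04 to 79.2] in bleomycin cells and 117 UPM [90.99 to 148] in saline cells.

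Col8a1, a chain of the network-forming collagen VIII found around vessels, rose to 24.4 UPM [23.1 to 25.8] in bleomycin fibroblasts, against 1.55 UPM [1.11 to 2.11] in saline fibroblasts, a ratio of 15.8 [11.5 to 22.2]. Pericytes were far higher, at 333 UPM [280.2 to 393] in bleomycin cells and 414 UPM [341 to 499.5] in saline cells. After thinning, 36.7% of bleomycin and 26.5% of saline pericytes had a Col8a1 UMI, against 2.30% and 0.168% of fibroblasts. Cells with at least 5 Col8a1 UMIs were picked by that count, here and below, so their high share is built in. The 12 bleomycin and 6 saline pericytes of this kind, 24.5% and 12.2% of 49 cells each, held 58.6% and 70.0% of the class's Col8a1 UMIs. Smooth muscle markers summed to 3894 UPM in those bleomycin cells and 4278 UPM in the rest, and to 12952 UPM in those saline cells and 3050 UPM in the rest. The fibroblast UMIs came from few cells. The top 1% of bleomycin fibroblasts held 60.4% of them, against 5.90% for Col6a1. Cluster 3 stood at 99.3 UPM [92.6 to 106], and 43 of its 514 cells, those with at least 5 Col8a1 UMIs, held 87.1% of the cluster's. Pericyte markers summed to 59.3 UPM in those cells and 59.3 UPM in the rest of the cluster. Smooth muscle markers summed to 7078 UPM in those cells and 4449 UPM in the rest. In bleomycin cluster 6 the 12 such cells had 145 UPM of pericyte markers, against 36.7 UPM in the rest. The part of these markers in the level was not tested. Without cluster 3 Col8a1 was under 20 UPM in bleomycin fibroblasts, so the call rests on that cluster.

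Cluster 10 was the only fibroblast cluster with at least 100 cells in each library. Its cells were not alike in other genes, since the 10 fibroblast markers summed to 14942 UPM in bleomycin cells and 43746 UPM in saline cells, and 7 smooth muscle markers to 692 and 203 UPM, and the part of this in the values was not tested. Of the 9 genes 0 rose and 0 fell of 6 with enough UMIs, where 3.57% of 3674 genes rose and 7.29% fell. Their median log2 ratio was 0.03, beside -0.08 for all genes, and 4 of 6 fibrillar genes rose. Col6a1 stood at 619.6 UPM [578 to 663] in bleomycin cells and 607 UPM [566 to 651] in saline cells. Col6a3 stood at 290.02 UPM [262 to 320.3] in bleomycin cells and 172 UPM [151 to 197] in saline cells, a ratio of 1.68 [1.42 to 1.99]. Both chains stayed under 2-fold. Col1a1 rose to 7983 UPM in bleomycin cells, against 3793 UPM in saline cells, just past 2-fold. Col1a2, the other type I chain, stayed under 2-fold, with a ratio of 1.76 [1.71 to 1.81]. The interval of Col6a3 covers that of Col1a2, so the calls do not set Col6a3 apart from both type I chains. Col6a2 stood at 571 UPM in bleomycin cells and 583 UPM in saline cells, Col15a1 at 104 UPM and 149 UPM, and Col16a1 at 69.3 UPM and 39.9 UPM, all under 2-fold. Col8a1 had 35 and 12 UMIs, Col12a1 44 and 13, and Col13a1 16 and 23, too few for a call. The cluster was found with collagens left out of the clustering and had no counterpart with enough cells of both libraries when they were kept.

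Over the 15 fibroblast units, Pearson's r of log levels with Col1a1 was -0.94 for Col13a1 and -0.04 for Col14a1. It was 0.75 for Col8a1, 0.70 for Col12a1, 0.66 for Col15a1, 0.64 for Col16a1, 0.62 for Col6a3, 0.52 for Col6a2 and 0.30 for Col6a1. Col13a1 thus ran against the fibrillar chain and Col14a1 followed it in neither direction. The units share their libraries and depths, so r is a description without a test.

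**Figure D4:**
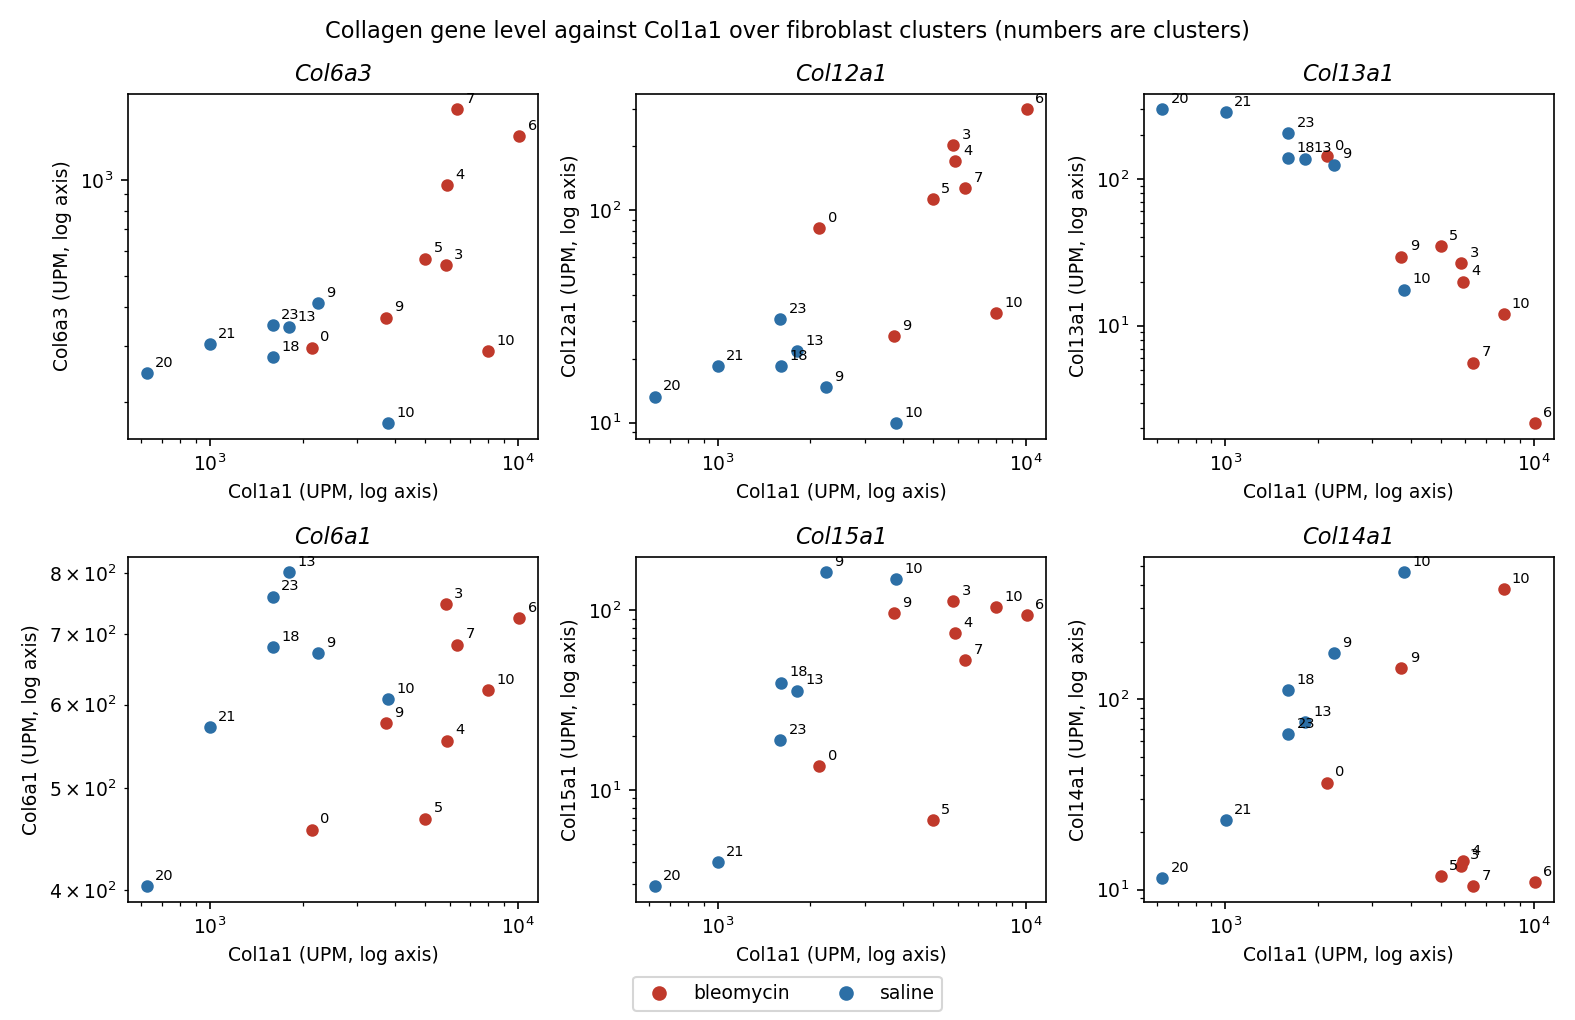
Level of 6 of the genes against Col1a1, both in UPM on log axes, over the 15 fibroblast units in bleomycin (red) and saline (blue), numbered by cluster. Col13a1 is lower where Col1a1 is higher (r = -0.94), Col12a1 and Col6a3 are higher (r = 0.70 and 0.62), and Col14a1 shows no slope (r = -0.04), with clusters 9 and 10 above the rest.

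Over all 27 units with at least 50 cells, the genes most alike in log level, with Pearson's r in parentheses, were Rab34 (0.97), Loxl1 (0.97) and Creb3l1 (0.97) for Col6a1 and Loxl1 (0.97), Dkk3 (0.97) and Bgn (0.97) for Col6a2. Col6a3 was most like Lox (0.94), Col1a1 (0.94) and Nnmt (0.94). The 27 units mix fibroblasts with other classes, so r here also reflects differences between classes. Over the 15 fibroblast units r of Col6a3 with Col1a1 was 0.62. For Col8a1 they were Igfbp2 (0.81), Wls (0.76) and Tpbg (0.74), and for Col12a1 Nrep (0.84), Fam180a (0.84) and Pappa (0.83). Col13a1 was most like Amph (0.95), Macf1 (0.94) and Slc38a5 (0.94), and Col14a1 most like C4b (0.90), Nkain4 (0.89) and Dact1 (0.88). The lists for Col15a1 and Col16a1 were Vcan (0.80), Cd248 (0.79) and Msx1 (0.78), and Hoxb6 (0.91), Sdc2 (0.90) and Gpr153 (0.90).

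In smooth muscle 1 of the 7 genes with enough UMIs rose and 0 fell, where 4.87% of 3389 genes rose and 4.54% fell. It was Col6a3, at 292 UPM [262 to 326] in 139 bleomycin cells and 139.9 UPM [118 to 164] in 235 saline cells, a ratio of 2.09 [1.72 to 2.55]. The class pools cluster 11 with cluster 8 (Hhip, Lum), and cluster 8 gave 41 of the bleomycin and 132 of the saline cells.

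In endothelial cells 4 of 5 genes with enough UMIs fell and 0 rose, where 10.2% of 4845 genes fell and 9.91% rose. Col6a2 stood at 13.9 UPM in bleomycin cells and 90.1 UPM in saline cells, Col6a3 at 22.4 UPM and 92.7 UPM, and Col13a1 at 12.8 UPM and 83.97 UPM. Col6a1, which also fell, stood at 15.5 UPM [10.4 to 22.2] in bleomycin cells and 106 UPM [87.8 to 126] in saline cells. The 10 fibroblast markers, all found in each library, summed there to 304 UPM after bleomycin and 6749 UPM after saline, and the 8 endothelial markers to 6016 and 6594 UPM. In the saline cells fibroblast markers thus exceeded the endothelial ones, as they did in cluster 2, at 8609 against 6369 UPM, where the bleomycin cells had 355 against 7281 UPM. The falls therefore compare cells that are unlike in fibroblast RNA, and its part in them was not tested. Lymphatic cells were 70 of 184 bleomycin and 19 of 147 saline endothelial cells. Col15a1 was the gene that did not fall, at 32.6 UPM [24.9 to 41.9] in bleomycin cells and 29.7 UPM [20.6 to 41.6] in saline cells. Cluster 2 held 59 of its 61 bleomycin UMIs, among 827601 UMIs, and all 34 saline ones, among 868447. The 70 bleomycin lymphatic cells held 2, so the pooled levels do not show Col15a1 as unchanged within a cluster.

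In immune cells 1 of 4 genes with enough UMIs fell and 0 rose, where 5.87% of 5335 genes fell and 2.91% rose. It was Col13a1, at 4.19 UPM [2.23 to 7.17] after bleomycin and 25.4 UPM [20.4 to 31.1] after saline. The 10 fibroblast markers summed there to 692 UPM after bleomycin and 2919 UPM after saline. In cluster 16, of monocytes or interstitial macrophages, they summed to 1416 and 8854 UPM beside 6711 and 2927 UPM of the 7 immune markers. Fibroblasts themselves held 6932 and 25742 UPM of the fibroblast markers, so the sums do not compare amounts of fibroblast RNA between libraries. The part of fibroblast RNA in the fall was not tested. Epithelial cells, 5 after bleomycin and 468 after saline, allow no comparison.

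Other genes of these matrices in fibroblasts were grouped by role, where 6.17% of 5885 genes with enough UMIs rose and 9.72% fell. Of 6 other collagens with enough UMIs 3 rose and 0 fell, while the median log2 ratio of the 15 with at least 20 UMIs was -0.41. Col7a1, the collagen of anchoring fibrils, rose to 30.7 UPM in bleomycin fibroblasts, against 2.05 UPM in saline fibroblasts. The basement membrane chains Col4a1 and Col4a2 rose to 456 and 376 UPM in bleomycin fibroblasts, against 219 and 109.6 UPM in saline fibroblasts. Of the receptors of these collagens with enough UMIs 0 rose and 3 fell of 5, while the median log2 ratio of all 11 receptors was 0.47. Of the 6 receptors under the minimum, Itga1, Itga2, Itga10, Itga11 and Cspg4 were higher after bleomycin and Itga3 was lower. Antxr2, a receptor for collagen VI, fell to 25.9 UPM in bleomycin fibroblasts, against 82.1 UPM in saline fibroblasts. Ddr2, a collagen-binding receptor kinase, fell to 62.4 UPM in bleomycin fibroblasts, against 150.3 UPM in saline fibroblasts, and the related anthrax toxin receptor Antxr1 fell to 63.7 UPM in bleomycin fibroblasts, against 128 UPM in saline fibroblasts.

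Of 10 matrix partners 3 rose and 3 fell. Fn1, fibronectin, rose to 2851 UPM in bleomycin fibroblasts, against 411 UPM in saline fibroblasts, and Fmod, a small proteoglycan on fibrils, rose to 119.7 UPM in bleomycin fibroblasts, against 26.8 UPM in saline fibroblasts. Matn2, a matrilin, rose to 39.4 UPM in bleomycin fibroblasts, against 10.4 UPM in saline fibroblasts, while Tnxb, tenascin X, fell to 25.6 UPM in bleomycin fibroblasts, against 82.03 UPM in saline fibroblasts. Of 6 enzymes 3 rose and 1 fell. Ctsk, a cathepsin that cuts collagen, rose to 146 UPM in bleomycin fibroblasts, against 42.5 UPM in saline fibroblasts. Bmp1, which trims procollagens, rose to 81.4 UPM in bleomycin fibroblasts, against 27.7 UPM in saline fibroblasts, and the membrane protease Mmp14 rose to 188 UPM in bleomycin fibroblasts, against 65.2 UPM in saline fibroblasts. Mmp11, a matrix protease, fell to 25.2 UPM in bleomycin fibroblasts, against 57.8 UPM in saline fibroblasts.

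Of the fibrillar chains set beside the 9 genes, most rose. Col1a1 rose to 5457 UPM in bleomycin fibroblasts, against 1461 UPM in saline fibroblasts, and Col5a1, a chain that starts fibrils, rose to 373 UPM in bleomycin fibroblasts, against 70.97 UPM in saline fibroblasts. Col11a1 had 1078 UMIs in bleomycin fibroblasts and 0 in saline fibroblasts, at least 178-fold higher against a floor of 3 counts over the class. Col3a1 stood at 3547 UPM in bleomycin fibroblasts and 2104 UPM in saline fibroblasts, under 2-fold. Col1a2 rose to 5158 UPM in bleomycin fibroblasts, against 1849.9 UPM in saline fibroblasts. The type V chains Col5a2 and Col5a3 rose to 672 and 63.4 UPM in bleomycin fibroblasts, against 192 and 15.4 UPM in saline fibroblasts. Col24a1, under the 20 UPM minimum, had 222 UMIs in bleomycin fibroblasts and 20 in saline fibroblasts, and Col27a1 stood at 26.6 and 51.1 UPM, a ratio of 0.520 [0.482 to 0.561].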

How the data were processed

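Each treatment gave 1 library of sorted single lung cells. The matrices the authors deposited are raw UMI counts, made with Cell Ranger 2.1.1 on mm10, per the submitters' processing notes. Neither the annotation release nor a strand setting is stated there. Positions came from GENCODE vM21 (28339 of 28692 identifiers matched).

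Barcodes with at least 500 genes, 1000 UMIs and at most 10% mitochondrial UMIs were kept. Scrublet's own threshold marked 0.112% of bleomycin barcodes, under the 0.5% set for trusting it, so in both libraries the highest scores up to 0.8% per 1000 barcodes (160 and 237) were left out. Scanpy 1.11.5 clustered cells from 2780 variable genes, without any of 44 collagen genes, with 30 components, 15 neighbours and Leiden resolution 1, without integration. Names came from marker lists; the thresholds for naming were set with the clusters in view, and members and lists were chosen with earlier results of these data known.

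UMIs were summed per class and library. Log2 ratios used a prior of 1 UPM. Intervals are exact Poisson, conditional binomial or Clopper-Pearson at 95%. Medians of a list took genes with at least 20 UMIs. All 9 members were named, the fibrillar genes with at least 50 UMIs in fibroblasts, up to 4 past the rule per other list and the 3 most alike per member. The size rule and the ratio intervals were tried on Poisson counts simulated from saline fibroblast levels. These had no spread between animals or cells, so the trial does not cover the missing replicates. Alternatives covered scaling, thinning, filters, clustering, priors and thresholds.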

Additional observations from a re-analysis of the deposited data

Results flagged for a closer look

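Col6a3 had log2 ratios of opposite sign in different classes. Its log2 ratio of bleomycin over saline was 1.45 in fibroblasts and 1.06 in smooth muscle, and -2.00 in endothelial cells. The difference between classes was not tested, since each has 1 library per group. In the endothelial cells the 10 fibroblast markers summed to 304 UPM after bleomycin and 6749 UPM after saline, beside 6016 and 6594 UPM of the 8 endothelial markers, so the saline cells held more fibroblast than endothelial marker RNA. The part of this in the ratio was not tested.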

How the results depend on the processing

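With 1 library per group nothing could be left out as a replicate, and depth limits the low genes, above all Col8a1 and those with under 50 UMIs. No paired analysis was possible because each group has 1 library. Of the values under alternatives 553 were unchanged, 12 reversed, 18 moved, 14 gained a call and 6 lost one. Part of the unchanged values was fixed in advance. Another prior can change no call or direction, and other thresholds can change no ratio or median, so the tally does not measure robustness. For ratios and shares of cells, unchanged means the same direction and the same call. For counts it means within 1.5-fold, for medians the same sign and within 0.5, and for lineages the same highest. Counts and medians beyond those limits moved. Leaving out single fibroblast clusters was chosen after seeing the data. Col6a1 in fibroblasts, under 2-fold throughout, changed sign to a log2 ratio of 0.015 with scaling by the median gene ratio (a log2 shift of -0.08), 0.0034 with thinned cells, and 0.011, 0.025 and 0.019 without clusters 0, 5 and 23. The median over all genes became 0.018 with that scaling. Col6a2 became -0.018 without cluster 20, and in cluster 10 it was 0.011 with that scaling, 0.058 thinned, 0.095 as a mean per cell and 0.23 with each library clustered alone. Col8a1 lost its call as a mean per cell (2.85) and without cluster 3 (2.12), and Col6a3 without cluster 7 (0.99). Col15a1 passed the rule without cluster 9 (1.08) and was as low as 0.02 under another setting. At 3-fold Col6a3 (1.45) and Col14a1 (-1.54) lost their calls, leaving 1 fallen member, and 187 and 250 genes rose and fell. At 1.5-fold Col16a1 (0.64) passed, 1 fibrillar gene fell, and 828 and 1077 genes rose and fell, against 3545 and 3831 with no minimum level. Also 1 fibrillar gene fell without cluster 0, 3, 6, 20 or 21. In cluster 10, 2 members rose at 1.5-fold, with no minimum level and with no doublets left out (1 fell there), and 3 with each library clustered alone. The share of all genes past the rule was not computed for cluster 10 under these settings. The member counts therefore cannot be read against it. No cluster that matched cluster 10 closely enough and had at least 100 cells per library was found under the strict filter, with collagens kept, or at resolution 0.5 or 2. Without thinning the difference in cells with a Col6a1 UMI became 3.63 points. For the reversals and changed calls the cause was not tested.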
